A study of Mus musculus with 2 samples.

Results

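The small leucine-rich proteoglycans described here were Dcn (decorin), Bgn (biglycan), Lum (lumican), Prelp (prolargin) and Ogn (osteoglycin, also called mimecan). They are 5 of the 5238 genes listed in at least 1 of 3 deposited tables and were picked by name, in the tables for the clusters of the control library, the clusters of the FGF2 library and the clusters of both libraries after integration. Dcn and Lum were listed in all 3 tables, as was Prelp, Bgn in both library tables, and Ogn in the control table. Single-cell RNA sequencing had been made from the stroma of salivary gland organoids, a culture model of the developing gland, with CD-1 mice (an outbred stock) as the source. Both libraries carried the same age label, embryonic day 16 with 7 added, which the sources used here do not explain. The control library came from 5023 captured cells and the other, from organoids given the fibroblast growth factor FGF2, from 10107. Neither the dose and timing of FGF2 nor the number of animals behind a library could be read from the labels.

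Small leucine-rich proteoglycans are secreted proteins of the extracellular matrix whose curved core is built from repeats rich in leucine. The core binds collagen fibrils and governs how they assemble and how thick they become, and most members carry chains of sulphated sugars. Decorin and biglycan belong to class I and carry chondroitin or dermatan sulphate. Lumican and prolargin belong to class II, in which lumican can carry keratan sulphate, while prolargin links collagen to heparan sulphate proteoglycans of basement membranes. Osteoglycin belongs to class III. Decorin and biglycan also bind TGF-beta, and the family as a whole is typical of fibroblasts and of skeletal connective tissue cells.

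Each entry of the authors' deposited tables set 1 cluster against the remaining cells in that table and gave the log ratio of the averages and the 2 shares of cells with a count. A share is the percentage of cells in which a gene was found at all. Shares over a whole library were computed from these entries, as was the relative mean, the average level of a cluster divided by that of its library, both with the offset of 1 that the log ratio carries. The offset pulls a relative mean towards 1, most of all for weakly expressed genes, so the values understate differences and are not comparable in size between genes. A cluster without an entry for a gene had a log ratio under 0.25 in size, a larger share under about 25.1%, or a p-value of the authors above the largest one listed (0.00999), so its own value was unknown. The depth per cell was unknown, barcodes shared by the libraries could not be counted from the tables, and with 1 library in each group no difference could be set against replicate spread or tested.

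Between the libraries, Prelp was the member that differed most. In control 46.6% of the cells had a count of Prelp, and with FGF2 5.10% had one, a share 9.14-fold lower with FGF2. Dcn was found in 84.8% and 91.7% of the cells, Bgn in 92.6% and 96.6%, and Lum in 51.1% and 69.0%, all within the size rule of 1.5-fold. Ogn had a count in 50.0% of cells in control but no entry in the FGF2 table, so no share with FGF2 was had. Thus 1 of 4 compared members was lower and 0 were higher. Of all 2318 genes compared, 15.3% were lower and 7.51% higher by the same rule. The median log2 ratio over all these genes was -0.08, and Prelp, at -3.19, had rank 9 from the lowest.

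**Figure D1:**
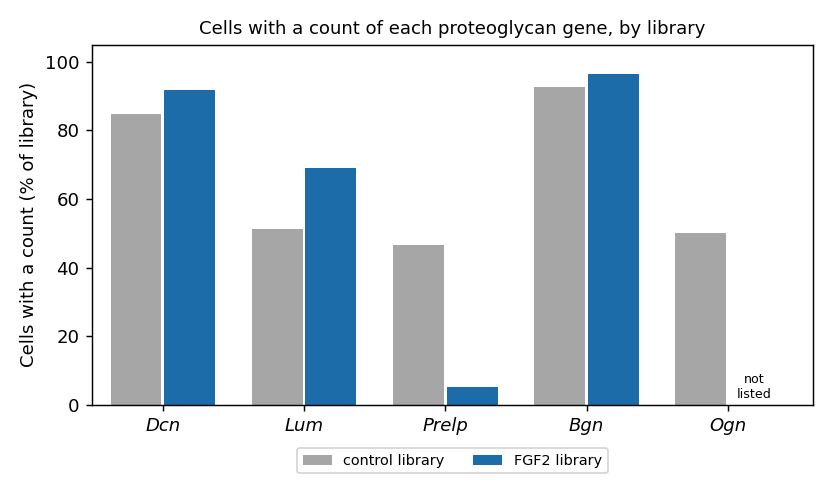
Bars give the percentage of cells with a count of each gene in the control library (grey) and the FGF2 library (blue), 1 library each and no error bars. Prelp stands at 46.6% and 5.10%, Lum at 51.1% and 69.0%, and Ogn has no FGF2 value because that table does not list it.

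Dcn and Bgn were found in most control cells, so their shares had little room to rise and could not be called higher by 1.5-fold. A lower call was possible for both. The share of cells without a count was 15.2% and 8.28% for Dcn, 7.36% and 3.44% for Bgn, and 48.9% and 31.0% for Lum, in control and FGF2 order. As a ratio of odds, which treats cells with and without a count alike, Dcn was 1.98-fold, Lum 2.13-fold and Bgn 2.23-fold higher with FGF2, and Prelp was lower. By this scale 3 of 4 members were past 1.5-fold upward and 1 downward, where 20.4% of all genes were higher and 36.2% lower. The differences of Dcn and Bgn moved when clusters with low shares were left out. Control clusters 4 and 9 and FGF2 clusters 10 and 13, in which most listed genes had low shares, held 13.4% and 4.92% of the cells. Without them Dcn was at 93.7% and 94.0%, and Bgn turned to 98.5% in control and 97.5% with FGF2. Lum kept its direction at 57.6% and 71.8%, and Prelp was at 47.5% and 5.14%. In this setting and the next, a cluster without an entry was given the mean share of the gene's unlisted clusters. Prelp in control cluster 4 was thus set at 50.9%, and Bgn in FGF2 cluster 13 at 99.6%. The Prelp and Bgn values without low-share clusters depend on that filling, since the true shares there were unknown. Stromal clusters alone means all clusters not named as a non-stromal cell type, which kept control cluster 4 and FGF2 clusters 10 and 13. These low-share clusters therefore still count in the values of this setting. In it Dcn was at 88.2% and 93.7% and Bgn at 95.6% and 98.6%. Lum was at 53.8% and 71.1%, and Prelp at 48.8% and 4.30%.

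**Figure D2:**
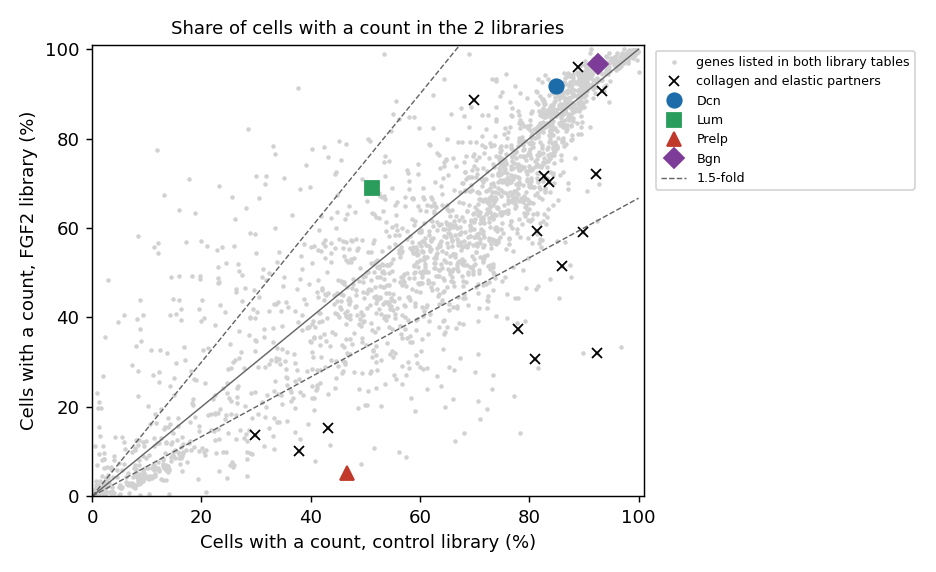
Each point is a gene listed in both library tables, placed by its share of cells with a count in control (x axis, %) and with FGF2 (y axis, %), and dashed lines mark 1.5-fold. Lum, Dcn and Bgn lie above the line of equality and Prelp lies far below it. Of the 15 collagen and elastic partners (crosses) 8 lie under the lower dashed line, where 15.3% of all genes lie.

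Prelp, the class II member that anchors basement membranes to collagen, had its highest control level in cluster 3. Thbs1, Vegfd and Ptx3 led this cluster, which was smooth muscle or myofibroblast-like by Acta2, Tagln, Lmod1 and Myl9 but also listed the fibroblast markers Col1a1, Col1a2 and Col3a1. In the authors' deposited table Prelp was found in 91.1% of the cells of cluster 3 against 41.0% of the other control cells. The relative mean there was 1.61, and the cluster held 21.8% of all Prelp-positive control cells. The fibroblast-like clusters 1 (Crabp1, Mmp3) and 6 (Mgp, Pmepa1) were low, with shares in the authors' deposited table of 18.2% and 30.9% and relative means of 0.69 and 0.73. Cluster 12, led by Ccl2 and Mt1, had Prelp in 19.5% of its cells by the authors' deposited table. Across the 8 control clusters with no Prelp entry the mean share was 50.9%, so the gene was widely found in the control stroma.

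With FGF2, the authors' deposited table listed Prelp for a single cluster, the epithelial-like cluster 11, led by Chil1, Fxyd3 and Krt18. There it was found in 32.0% of the cells against 4.30% of all other cells, with a relative mean of 2.21. This cluster was 2.88% of the FGF2 cells and held 18.1% of the Prelp-positive ones. The epithelial-like control cluster 9 (Wfdc18, Krt18, Krt8) had Prelp in only 1.40% of its cells per the authors' deposited table, where that cluster's listed genes had a median share of 7.0%. The other epithelial-like control cluster, 13, led by Igfbp5, Krt14 and Itga6, had no Prelp entry. The highest entry for Prelp was thus contractile stroma in control and epithelium with FGF2. No entry gives Prelp in the FGF2 cell types that should lack it, so whether the 4.30% in the other FGF2 cells lies above background was not tested.

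Ogn, the class III member, was highest in the fibroblast-like control cluster 0, led by Fbn2, Vegfd and Dlk1. In the authors' deposited table it was found in 78.1% of that cluster against 44.3% of the other cells, with a relative mean of 1.59 and 26.3% of all Ogn-positive control cells. Control cluster 2 (Spp1, Cxcl13) followed at 54.7% of its cells in the authors' deposited table and a relative mean of 1.26. Both proliferating-like clusters were lower, with relative means of 0.61 in cluster 7 and 0.68 in cluster 8, as was the Mgp-led cluster 6 with 0.58. The level in cluster 0 was 2.76-fold that of cluster 6. For the clusters with no Ogn entry (1, 3 and 5) the mean share was 59.6% and the joint relative mean 0.96.

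Promoters are shown for Prelp and Ogn, which had an entry in the control stroma and none in the FGF2 stroma, and for Bgn, which had both. They are the 250 bases before the start that the RefSeq promoter table uses (GRCm38.p6, the assembly also named mm10), 5′ to 3′ on the strand of the gene, and 3 of the 5 members matched that table. Prelp lies on the minus strand at chr1:133921402-133921651, Ogn on the plus strand at chr13:49607765-49608014, and Bgn on the plus strand at chrX:73483351-73483600. The Ogn and Bgn windows end directly before the RefSeq gene span. The Prelp window does not, since its start site is 133921401 and the RefSeq span of the gene begins 8.7 kb further upstream, at 133930102, so that the window lies inside the span. In GENCODE M21 the Prelp gene begins at 133921414, 13 bases from that start site. Capitals mark matches, on either strand, to the TATA box TATAAA, to the motif of SP1, which is GGGCGG, to the motif of AP-1, which is TGANTCA, to the motif of TEAD factors, which is GGAATG, or to the CArG box of serum response factor.
Prelp: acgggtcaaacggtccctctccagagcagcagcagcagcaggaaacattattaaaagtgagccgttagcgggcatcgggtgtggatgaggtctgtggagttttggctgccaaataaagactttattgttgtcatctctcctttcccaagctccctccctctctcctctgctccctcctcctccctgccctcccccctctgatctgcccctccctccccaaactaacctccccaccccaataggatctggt
Ogn: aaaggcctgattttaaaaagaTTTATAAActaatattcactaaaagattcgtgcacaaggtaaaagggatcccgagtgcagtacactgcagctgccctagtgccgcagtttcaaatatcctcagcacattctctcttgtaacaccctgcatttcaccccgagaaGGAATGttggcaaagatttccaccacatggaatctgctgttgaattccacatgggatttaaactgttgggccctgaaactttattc
Bgn: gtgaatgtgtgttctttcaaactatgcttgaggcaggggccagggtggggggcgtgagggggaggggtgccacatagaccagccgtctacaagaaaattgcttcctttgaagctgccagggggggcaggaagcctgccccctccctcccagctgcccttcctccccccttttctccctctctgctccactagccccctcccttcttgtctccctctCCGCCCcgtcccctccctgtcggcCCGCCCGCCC
The Bgn window held GGGCGG 3 times on the opposite strand, at -34, -10 and -6 bases from the start, the last 2 overlapping, and 32.7% of 32851 promoter windows of this length hold that motif. In the Ogn window, TATAAA matched at -229 and -227 in overlapping copies on both strands (12.4% of windows hold it) and GGAATG at -86 (12.6%). The Prelp window held none of the 5 motifs, which says only that these letters are not in these bases, and the bases before the longer RefSeq span were not searched. TGANTCA occurred in 6.75% and the CArG box in 1.47% of all windows. The base composition differed, with 64.4% G and C for Bgn, 55.6% for Prelp and 42.0% for Ogn against a median of 52.4%. The motifs were chosen after the sequences had been seen, and no binding was measured.

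Dcn, the class I member that binds collagen fibrils along their length, was highest in the fibroblast-like control cluster 1, led by Crabp1, Mmp3 and Cpxm1. The relative mean was 2.19 there, 1.52 in cluster 12 (Ccl2, Mt1) and 1.48 in the fibroblast-like cluster 2. The authors' deposited table gave shares of 100%, 100% and 96.9% for these 3 clusters. The lowest stromal entry was that of the smooth muscle or myofibroblast-like cluster 5 (Acta2, Actg2, Tagln), with a relative mean of 0.30. Cluster 1 thus stood 7.31-fold above cluster 5. The share did not show this, since the authors' deposited table had Dcn in 86.2% of the cells of cluster 5 and 84.7% of the other cells. The proliferating-like cluster 8 had a relative mean of 0.65 at a share of 87.9% in the authors' deposited table.

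With FGF2, Dcn was highest in the fibroblast-like clusters 5 (Igfbp5, Cd24a) and 7 (Igfbp5, Il11), with relative means of 2.11 and 2.01. Cluster 1, led by Cck and Odc1, followed with 1.47. The smooth muscle or myofibroblast-like FGF2 cluster 4 (Acta2, Tagln, Thbs1) was again low, at 0.22 of the library mean, although the authors' deposited table had Dcn in 84.8% of its cells. The other cluster of that name, the low-share cluster 13 (Acta2, Tagln, Actb), was lower still. The level in cluster 5 was 9.54-fold that in cluster 4. FGF2 clusters 0 (Nptx1, Cdkn2a) and 6 (Cavin2, Cemip) were also below the library, with relative means of 0.56 and 0.55 at shares of 95.7% and 94.5% in the authors' deposited table. The low-share clusters differed, with both share and level low. The authors' deposited table had Dcn in 27.5% of control cluster 4, 49.7% of FGF2 cluster 10 and 43.0% of FGF2 cluster 13, at relative means of 0.50, 0.57 and 0.17.

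**Figure D3:**
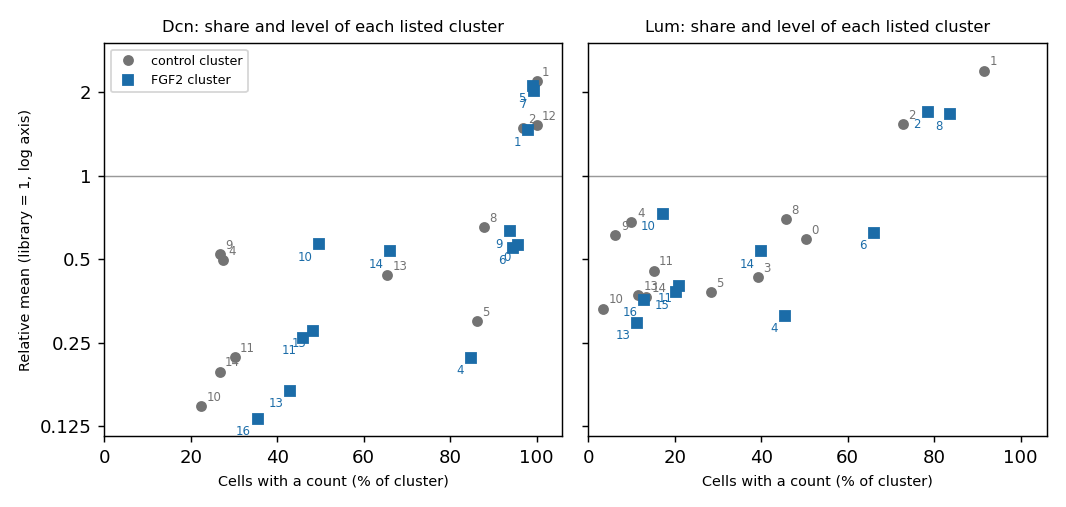
Each point is a cluster with an entry for Dcn (left) or Lum (right), placed by its share of cells with a count (x axis, %) and its relative mean (y axis, log scale, library = 1), with the cluster number beside it, grey for control and blue for FGF2. Control cluster 5 and FGF2 cluster 4 have Dcn in 86.2% and 84.8% of their cells at relative means of 0.30 and 0.22.

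Bgn, the other class I member, had few stromal entries. In control it was listed higher only in the fibroblast-like cluster 6 (Mgp, Pmepa1, Timp1), found there in 100% of the cells per the authors' deposited table at a relative mean of 1.35. The control clusters with no Bgn entry had a mean share of 99.9% and a joint relative mean of 1.09. With FGF2 it was again highest in the Mgp-led cluster, number 8 (Mgp, Pla1a, Ccl8), at a relative mean of 1.40, followed by cluster 7 with 1.31. Its stromal low was cluster 0 at 0.81, so the FGF2 stromal clusters with an entry, leaving out cluster 10, spanned 1.74-fold. Unlike Dcn and Lum, Bgn had no entry for the Acta2-led clusters 5 in control and 4 with FGF2.

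Lum, the class II member needed for fibril spacing in the transparent cornea, was highest in the same control cluster as Dcn. In the authors' deposited table it was found in 91.6% of control cluster 1 and 72.7% of cluster 2, against 44.3% and 47.7% of the cells outside each. The relative means were 2.39 and 1.53. Clusters 3 and 5 were low, with 0.43 and 0.38, as was the fibroblast-like cluster 0 with 0.59, where the authors' deposited table gave a share of 50.4%. Cluster 1 stood 6.28-fold above cluster 5 and 5.55-fold above cluster 3. Prelp ran the other way between clusters 3 and 1, with a level 2.32-fold higher in cluster 3.

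With FGF2, Lum was highest in the fibroblast-like clusters 2 (Igfbp3, Lpl, Clu) and 8 (Mgp, Pla1a, Ccl8). The relative means were 1.70 and 1.67, and the authors' deposited table had Lum in 78.6% and 83.7% of their cells. Leaving out the low-share cluster 13, the lowest stromal entry was cluster 4, at 0.31 and a share of 45.4% in the authors' deposited table. Cluster 2 stood 5.44-fold and cluster 8 5.34-fold above it. The leading clusters of Dcn (5 and 7) had no Lum entry, and those of Lum (2 and 8) had no Dcn entry. The members that shared a leading cluster in control thus had separate ones with FGF2, a description of 1 library each.

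**Figure D4:**
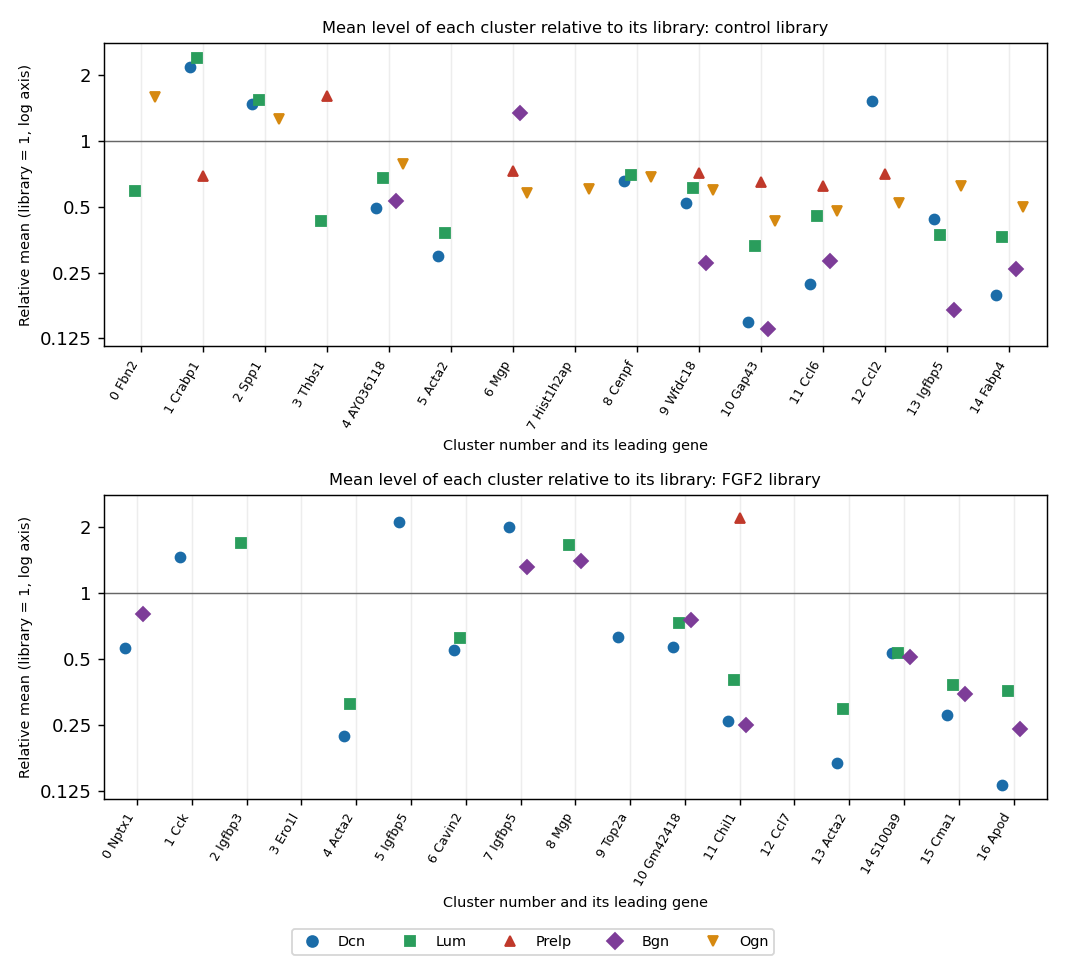
Points give the relative mean of each gene (log axis, library = 1) in every cluster that lists it, control above and FGF2 below, with cluster numbers and leading genes on the x axis and no error bars. In control Dcn and Lum peak in cluster 1, Ogn in 0, Prelp in 3 and Bgn in 6. With FGF2 the peaks are cluster 5 for Dcn, 2 for Lum, 8 for Bgn and 11 for Prelp.

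Of the other 13 family symbols looked for, 3 were listed, all in the control table alone. Podn (podocan) was found in 40.1% of the control cells, Aspn (asporin, class I) in 39.0% and Fmod (fibromodulin, class II) in 24.8%. Podn was highest in cluster 0, the leading cluster of Ogn, with 72.0% of its cells in the authors' deposited table, and Aspn in cluster 2 with 54.0%. Fmod had a single entry, for cluster 3, the leading cluster of Prelp, with 54.3% of its cells against 21.1% elsewhere in the authors' deposited table. Counting these, 4 of 8 family genes of the control table were missing from the FGF2 table, as were 47.4% of all 4419 genes of the control table. A missing entry is no sign of absence.

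The family lies in small gene groups in the mouse genome, given here from RefSeq for GRCm38.p6. Dcn (chr10:97479500-97518163) and Lum (chr10:97565501-97572703) are neighbours 47.3 kb apart with no protein-coding gene between them. Both were highest in control cluster 1, but with FGF2 Dcn was highest in cluster 5 and Lum in cluster 2. Prelp (chr1:133910304-133930102) and Fmod (chr1:134037254-134048280) are 107 kb apart, again with none between. Prelp was highest in control cluster 3, for which Fmod had its only entry. Ogn (chr13:49608015-49624501) follows Aspn (chr13:49544443-49567565) and Omd. Both Ogn and Aspn had a higher entry for cluster 2, but Ogn was highest in cluster 0, where Aspn had no entry. Bgn (chrX:73483601-73495936) has no family neighbour among the genes looked up.

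Counts were also listed in cell types not known as main sources of these genes, and free RNA was not measured. All 5 members were listed lower in the macrophage-like control cluster 11 (where 22.8% of all genes of that table were listed lower), the Schwann or glial-like cluster 10 (14.4%) and the epithelial-like cluster 9 (19.1%). In the epithelial-like cluster 13 (13.6%) and the endothelial-like cluster 14 (16.7%) 4 of 5 were. The authors' deposited table had counts in macrophage-like cells of 54.7% for Bgn, 30.2% for Dcn, 15.1% for Lum, 13.2% for Ogn and 7.50% for Prelp. In Schwann or glial-like cells the authors' deposited table gave 62.1%, 22.4%, 3.40%, 3.40% and 8.60% in the same order. The stromal shares stand against these values, at a depth that was unknown for every cluster.

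With FGF2, Dcn, Lum and Bgn were listed lower in the epithelial-like cluster 11 (16.5% of the genes of that table were), the mast cell-like cluster 15 (33.5%) and the Schwann or glial-like cluster 16 (29.8%). The same held for cluster 14 (15.6%), which listed 4 macrophage markers but was led by the neutrophil genes S100a9 and S100a8. In the mast cell-like cluster the authors' deposited table had Dcn in 48.4%, Bgn in 43.8% and Lum in 20.3% of the cells. These shares stood below those of the fibroblast-like FGF2 clusters with an entry, which were 99.1% or more for Dcn and 78.6% or more for Lum.

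Clusters in which few genes were found went low too. Control cluster 4, led by AY036118 and Gm42418, had a median share of 10.9% over its listed genes against 84.8% outside, and 4 members were listed lower in it (9.01% of all genes were). Dcn was found in 27.5% and Bgn in 61.0% of its cells per the authors' deposited table. FGF2 cluster 10 had medians of 14.4% and 70.8%, and Dcn, Lum and Bgn were listed lower (6.47% of all genes were). No member was listed higher in either cluster. The part of these clusters in the values of the library was described above.

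**Figure D5:**
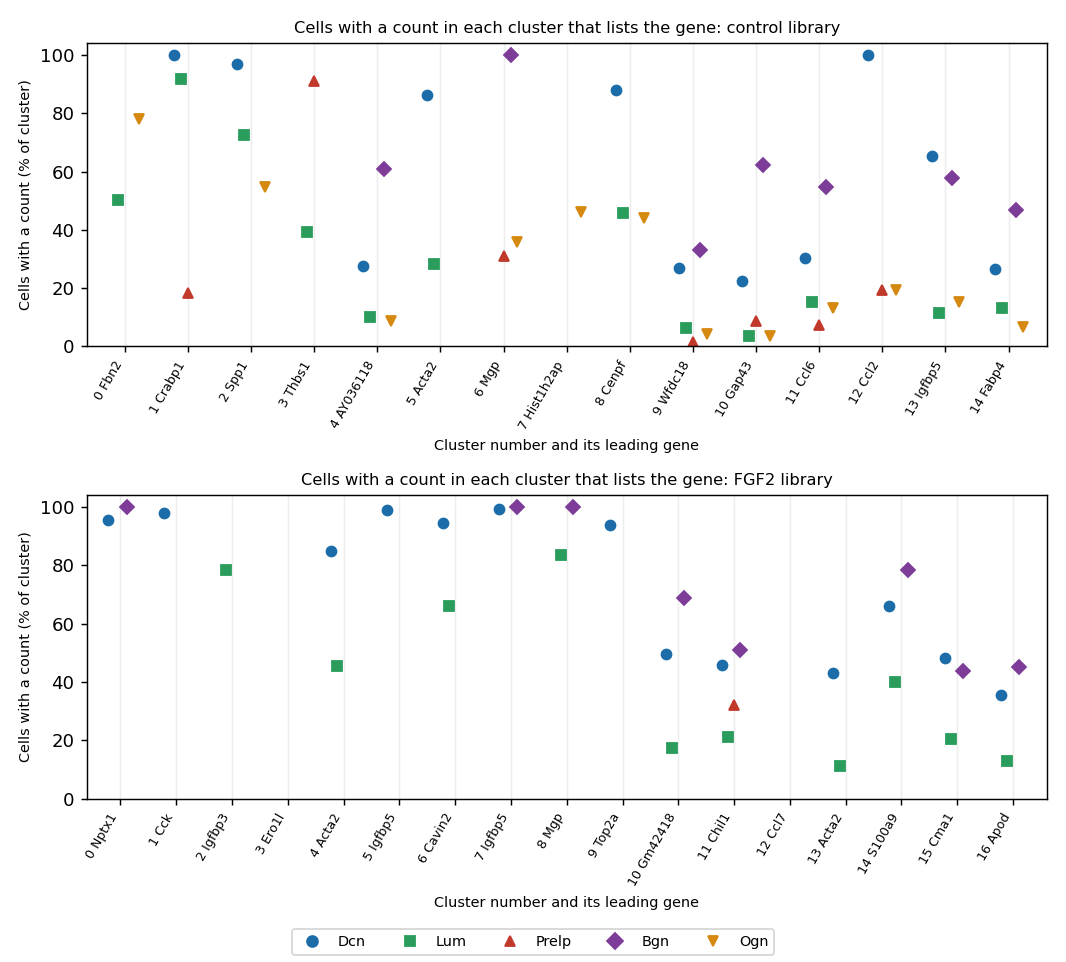
Points give the percentage of cells with a count of each gene in every cluster that lists it, from the authors' deposited table, control above and FGF2 below. Prelp is at 91.1% in control cluster 3 and 32.0% in FGF2 cluster 11, its only FGF2 entry.

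Across clusters, Dcn and Lum had the most similar profiles among the members. Their log ratios correlated at a Pearson r of 0.84 over the 15 control clusters and 0.83 over the 17 FGF2 clusters, with clusters without an entry at 0. They had the same sign in 10 of 10 control clusters and 8 of 8 FGF2 clusters listed for both. Dcn and Bgn were at 0.75 in control and 0.64 with FGF2. Prelp had r of 0.11 to Dcn, -0.28 to Lum, 0.28 to Bgn and 0.47 to Ogn in control. Ogn had r of 0.52 to Dcn, 0.28 to Lum and 0.55 to Bgn there. In control cluster 2, Dcn, Lum and Ogn were all listed higher (3 of 5, where 5.61% of all genes were). The clusters of a library share its cells, since each is set against all others, and the low non-stromal clusters are common to most pairs.

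The genes with the profile most like each member were named by the same r, where a gene needed entries in 5 or more clusters (603 genes qualified in control and 474 with FGF2). For Dcn in control they were Pdgfra, the receptor that marks fibroblasts (0.94), Serping1, the inhibitor of complement C1 (0.94), and Mark1, a kinase of microtubule proteins (0.94). For Lum they included Cpxm1 (0.95) and Crabp1, which binds retinoic acid (0.95). Prelp was closest to Id4, an inhibitor of helix-loop-helix factors (0.90), Mylk, the kinase of myosin light chain in contractile cells (0.88), and Vegfd, a lymphatic growth factor (0.85). Bgn was closest to the guidance ligand Slit3 (0.98), the secreted serpin Serpinf1 (0.98) and Loxl1, which crosslinks elastin (0.96). Ogn had weaker matches in Rspo3, which amplifies Wnt signals (0.80), Cxcl12 (0.80) and Vcam1 (0.80). Over the clusters listed for both genes of a pair, Spearman's rho was 0.40 for Ogn with Cxcl12, 0.48 for Ogn with Vcam1 and 0.57 for Prelp with Mylk.

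With FGF2 the closest genes to Dcn were Cebpb, a transcription factor of inflammation and fat cells (0.94), Cped1 (0.92) and Frzb, a Wnt antagonist (0.91). Lum was closest to a, the agouti signalling gene (0.90), Serping1 (0.90) and Col6a3, a chain of collagen VI (0.89). Bgn was closest to Serpinf1 (0.96), Tnfaip2 (0.95) and Pla2g4a, a phospholipase that releases arachidonic acid (0.93). Serpinf1 was among the 3 closest to Bgn in each library.

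In the integrated table, whose values were made comparable between libraries, an entry is a difference between batch-integrated values, which is not a difference in expression. Dcn had an entry in all 14 clusters, Lum in 11, Prelp in 1, and Bgn and Ogn had none. Dcn was highest in integrated cluster 1 (Igfbp5, Slpi, Il11), with a relative mean of 2.17, and Lum in the fibroblast-like cluster 3 (Mgp, Lum, Igfbp3), with 1.95. The smooth muscle or myofibroblast-like cluster 2 (Acta2, Tagln, Thbs1) was low for both, at 0.28 and 0.38. Dcn in cluster 1 stood 7.81-fold above cluster 2, and Lum in cluster 3 stood 5.09-fold above it. Prelp was listed for the epithelial-like cluster 9 alone, with shares of 53.3% there and 15.6% outside it in the authors' deposited table. Over all integrated clusters the share was 93.6% for Dcn and 77.3% for Lum, above both libraries, and 16.7% for Prelp, between them. Integrated shares were therefore not read as percentages of cells with a count.

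Genes that work with these proteoglycans were compared between the libraries by the same 1.5-fold rule. Of 15 compared collagen and elastic partners 8 were lower and 0 higher with FGF2, where 15.3% of all genes were lower and 7.51% higher. Their median log2 ratio was -0.61 against -0.08 over all genes. The most lowered were Ccn2, a matrix protein induced by TGF-beta (37.8% and 10.1% of the cells), the fibrillar collagen gene Col3a1 (92.4% and 32.0%) and Eln, the gene of elastin (43.2% and 15.3%). From a control share near that of Col3a1 no higher value past 1.5-fold was possible. Dcn and Bgn, which bind these collagens, were within the rule.

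Enzymes that build the sugar chains were rarely listed in both tables. Of 30 symbols 4 were compared, and 1 was lower. This was Dse, the epimerase that turns chondroitin into dermatan sulphate on decorin and biglycan, which had a count in 60.4% of cells in control and 35.1% with FGF2. Ugdh, Chst15 and Csgalnact1 were within the rule, and the median log2 ratio of the 4 was 0.12. Among 13 compared proteoglycans of other families 2 were lower and 1 higher (median -0.20), near the 15.3% and 7.51% over all genes. The lower ones were Vcan, the large matrix proteoglycan versican (67.8% and 38.6%), and Gpc3, a membrane-anchored glypican (81.2% and 46.3%), and the higher one was Srgn, the proteoglycan of leukocyte granules (2.20% and 8.43%).

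The list of proteases that can cut these proteins went both ways, with 2 of 9 higher and 2 lower (median -0.09), where 7.51% of all genes were higher and 15.3% lower. The 9 include Pcolce, an enhancer of procollagen cleavage and not itself a protease, which was within the rule (83.5% and 64.3%). Mmp13, a collagenase, was found in 14.3% and 40.6% of the cells and Mmp3, stromelysin 1, in 53.3% and 98.9%. The aggrecanases were the lower ones, Adamts5 at 78.3% and 14.2% and Adamts1 at 77.8% and 38.7%. Of 8 ligands and receptors bound by members of the family 2 were higher and 1 lower (median -0.13), the latter near the 15.3% over all genes. Bmp2, a bone morphogenetic protein, was at 1.99% and 26.8%, and Cd14, a co-receptor of innate immunity, at 5.78% and 12.1%. Tgfb2, a TGF-beta ligand, was at 28.3% and 4.50%. Counts of this size come from lists of few compared genes and were not tested.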

How the data were processed

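Libraries were made on the 10x Chromium system, which counts the 3' ends of transcripts. The submitters' processing notes name Cell Ranger 4.0 with mm10. How cells were filtered, doublets treated, values normalized, clusters made and markers tested is not given in the sources used here. As values, the authors deposited natural log ratios of averages, fractions of cells with a count (printed as percentages) and p-values, the last from single cells and therefore not printed. The base of the log was checked on 3 genes listed in every integrated cluster, whose relative means, weighted by cluster, summed to 0.9997 to 1.00 with the natural log and 0.953 to 0.966 with base 2.

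The part w of each cluster and the share of each gene were computed with Python 3.11.15 by least squares over all genes listed in at least 2 clusters, and the relative mean as exp(r)/(1 - w + w exp(r)) for a log ratio r. On simulated tables a share was off by at most 0.0531 percentage points for control (4419 genes) and 0.0755 for FGF2 (3058 genes). Of 83 genes simulated higher 80 were called, of 96 lower 96, with 1 wrong call, among 2323 genes of a simulated comparison between libraries. The simulated tables followed the relation used for the recovery, with rounding as the only error. They therefore check the computation and give no error rate for the calls between the real libraries. Genes listed in both library tables with a larger share of at least 0.5% were compared, and 1.5-fold was the size rule.

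Clusters were named from at least 3 listed markers of 1 of 15 lists. Members, lists and rules were chosen with earlier results of these data known. Genes named beyond the members were the 3 with the most similar profile, the 3 largest changes each way in a list, and other listed family genes, and 1 gene that the rule names is not reported here. Alternatives were a minimum of 3 clusters, equal weight per gene, odds, 2-fold, clusters left out, log base 2 and a rank correlation.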

Additional observations from a re-analysis of the deposited data

How the results depend on the processing

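The shares of Dcn, Lum, Prelp and Bgn kept their side of the 1.5-fold rule when cluster parts came from genes listed in at least 3 clusters, when each gene had equal weight, with a 2-fold rule, without the clusters of low shares, and in stromal clusters alone. As a ratio of odds over all clusters Dcn (log2 0.99), Lum (1.09) and Bgn (1.16) passed it upward. Odds were not computed without the clusters of low shares. There Bgn was at 98.5% in control and 97.5% with FGF2, Dcn at 93.7% and 94.0%, and Lum at 57.6% and 71.8%. The upward odds of Bgn and Dcn thus hold only with those clusters included. The leading cluster of each member stayed with log base 2, and in the 6 profiles that have a higher entry of at least 0.5 in size. Ranked by share, Dcn led in FGF2 cluster 7 and Lum in FGF2 cluster 8, and the leading clusters of the other 6 profiles stayed.

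With odds, 474 genes were higher and 838 lower, against 174 and 354 by the ratio, and with a 2-fold rule 99 and 177. With odds, 1 of 4 sugar chain enzymes, 2 of 13 other proteoglycans and 2 of 15 collagen and elastic partners were higher. So were 3 of 9 genes of the protease list and 3 of 8 ligands or receptors, where 20.4% of all genes were higher. Lower were 12 of the 15 partners, 1 of 4 enzymes and 4 of 13 other proteoglycans. The same held for 4 of 9 genes of the protease list and 4 of 8 ligands or receptors, where 36.2% of all genes were lower. With 2-fold, 0 enzymes and 0 other proteoglycans were lower and 1 protease was higher. Counts without the clusters of low shares and in stromal clusters alone, both chosen after seeing the data, stayed within 1.5 times. The rank correlation over shared entries kept the sign of all 23 likenesses it could be computed for, and moved 11 by 0.1 or more. These pairs had been picked for a high r on the same log ratios, so the kept sign is no separate support. No paired analysis was possible because each group has 1 library. Leaving out a replicate was not possible for the same reason. The unknown depth per cell limits every share.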
